A study of Mus musculus with 4 samples.

Results

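The insulin-like growth factor (IGF) binding proteins and the IGF receptor gene were followed on 4 arrays of mouse cells. The 8 genes, chosen by name, were Igfbp2, Igfbp3, Igfbp4, Igfbp5, Igfbp6, Igfbp7, Igf1 and Igf1r, of 18193 genes with a probe set. All 24 probe sets annotated to them were read, of 45101 on the array. The samples were a line of induced neural stem cells obtained using 14 factors (iNSC_14F), a like line obtained using 13 (iNSC_13F), primary-derived neural stem cells (NSC) and mouse embryonic fibroblasts (MEF), each measured once as total RNA. The factors, the starting cell of each induced line, the mouse strain and the growth of the fibroblasts are not given in the labels. NSC and both induced lines were kept in N2 medium with insulin, transferrin, EGF, bFGF and laminin, so insulin was supplied to all 3. With 1 array per group no SD, p-value or replicate check can be given, and a difference may be that of the single culture. In bulk RNA, fewer cells expressing a gene and less RNA per cell cannot be told apart.

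IGF-1 and IGF-2 are secreted peptides that act through the receptor tyrosine kinase IGF1R. The binding proteins are secreted too. They hold the ligands in the medium, in serum or on the extracellular matrix, and can either limit or prolong their action. In the developing brain IGF signalling promotes growth and survival of progenitors, and radial glia, astrocytes, choroid plexus and meninges are known to make different binding proteins. Insulin at high concentration, as used in neural stem cell media, can also act on IGF1R.

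Values are MAS5 signals, a linear brightness per probe set. A floor of 103.9 was set from 86 probe sets of odorant, vomeronasal and taste receptors, and a fold against an array below it is written "at least". The floor is the 95th percentile of these probe sets on MEF, the highest of the 4 arrays. The same percentile was 70.9 on iNSC_14F, 99.4 on iNSC_13F and 37.1 on NSC. A gene is given by its brightest probe set unless stated. Of the 8 genes, 6 passed the floor on every array, Igf1 was so on 2 arrays and Igfbp6 on 1. Of the 24 probe sets, 13 were above it on all arrays and 4 on none. A gene was called when it differed at least 4-fold. For scale, 95% of 9311 genes that passed the floor in both induced lines differed by less than 2.32-fold between them, a spread that also holds real differences between the lines. Signals of different genes are not on a common scale, so levels are compared only between arrays.

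**Figure D1:**
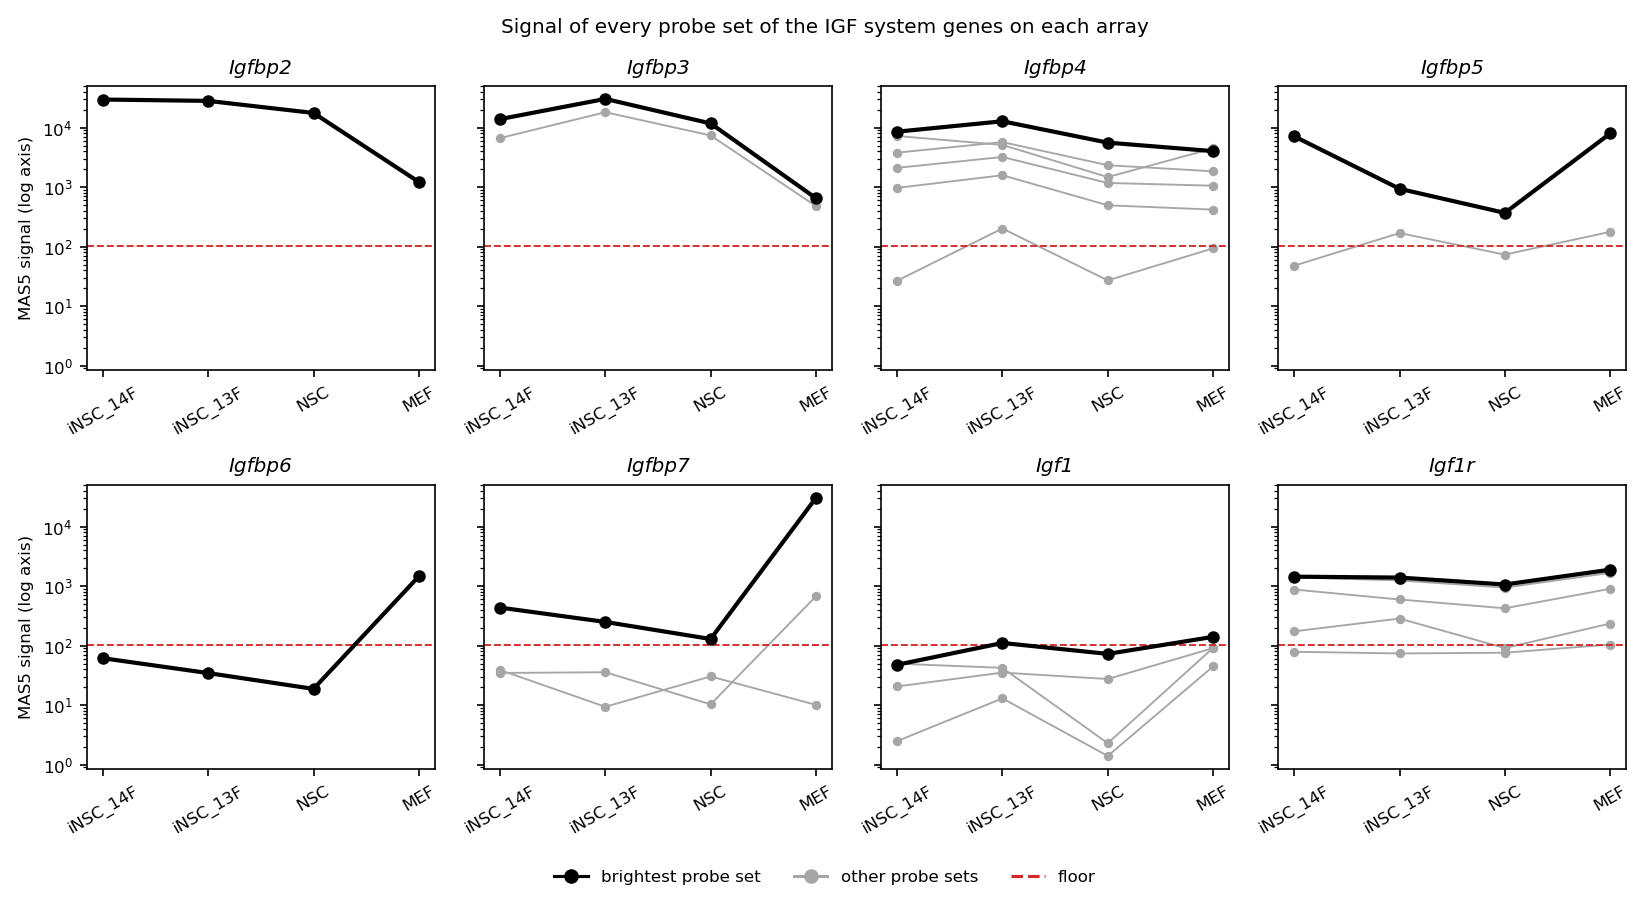
MAS5 signal (log axis) of all 24 probe sets of the 8 genes on the iNSC_14F, iNSC_13F, NSC and MEF arrays, with 1 array per group and no error bars. Black points are the brightest probe set of a gene, grey points its other probe sets, and the dashed line is the floor of 103.9. Igfbp2 and Igfbp3 lie higher on the 3 neural arrays than on MEF, Igfbp6 and Igfbp7 lie lower, and the bright probe set of Igfbp5 is near its MEF signal on iNSC_14F alone.

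Markers set the neural arrays apart from MEF. All 7 measured neural stem cell markers were above the floor on each of the 3 neural arrays, and 3 of them were so in MEF. Their summed signal was 50324 in iNSC_14F, 43427 in iNSC_13F, 56809 in NSC and 1562 in MEF. Not all set the arrays apart equally, since Nes ranged over 1.87-fold and Msi1 over 3.70-fold on the 4 arrays. Of 8 fibroblast markers, 3 were above it in iNSC_14F, 4 in iNSC_13F, 1 in NSC and 7 in MEF, with summed signals of 3950, 2826, 449.5 and 173700. Markers of hepatocytes (4 measured) and B lymphocytes (4 measured) were all below the floor on every array, and those of embryonic stem cells, which the source label names, were below it except Esrrb (133 in iNSC_14F and 256 in iNSC_13F). The hybridization controls added to each sample were brighter than on NSC by 1.82-fold on iNSC_14F, 2.11-fold on iNSC_13F and 1.83-fold on MEF. When arrays were scaled to these controls, the median log2 difference of all genes moved to -0.45 from 0.33 for iNSC_14F over NSC, to -0.65 from 0.30 for iNSC_13F over NSC and to 0.78 from -0.01 for NSC over MEF. It moved to 0.28 from 0.07 for iNSC_14F over iNSC_13F and to -0.09 from 0.09 for iNSC_13F over MEF. The share of calls that were higher moved to 2.24% from 13.2%, to 78.6% from 45.8% and to 76.8% from 59.3% for iNSC_14F over NSC, NSC over MEF and iNSC_14F over iNSC_13F.

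Against fibroblasts, Igfbp2 and Igfbp3 were higher and Igfbp6 and Igfbp7 lower on all neural arrays. Igfbp4 was not called on any of them, and the Igfbp5 call varied between them. Over MEF, iNSC_14F had 2 of the 8 genes called higher, where 4.49% of 11572 measured genes were, and 2 called lower, where 8.03% were. For iNSC_13F, 2 were called higher (background 3.66% of 11770 genes) and 3 lower (9.27%). For NSC, 2 were called higher (6.09% of 11492 genes) and 3 lower (7.21%). The genes higher were Igfbp2 and Igfbp3 in each case, the lower ones were Igfbp6 and Igfbp7, and Igfbp5 was added in iNSC_13F and NSC. The Igfbp5 calls are lost without _s_at and _x_at probe sets, and that in iNSC_13F also with the median of probe sets. The median log2 difference of the 8 genes was -0.27 in iNSC_14F over MEF, -0.39 in iNSC_13F over MEF and -0.63 in NSC over MEF, against 0.10, 0.09 and -0.01 for all measured genes. These 3 comparisons share the MEF array, and the 8 genes were chosen with earlier results of these data known, so the counts are a description.

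**Figure D2:**
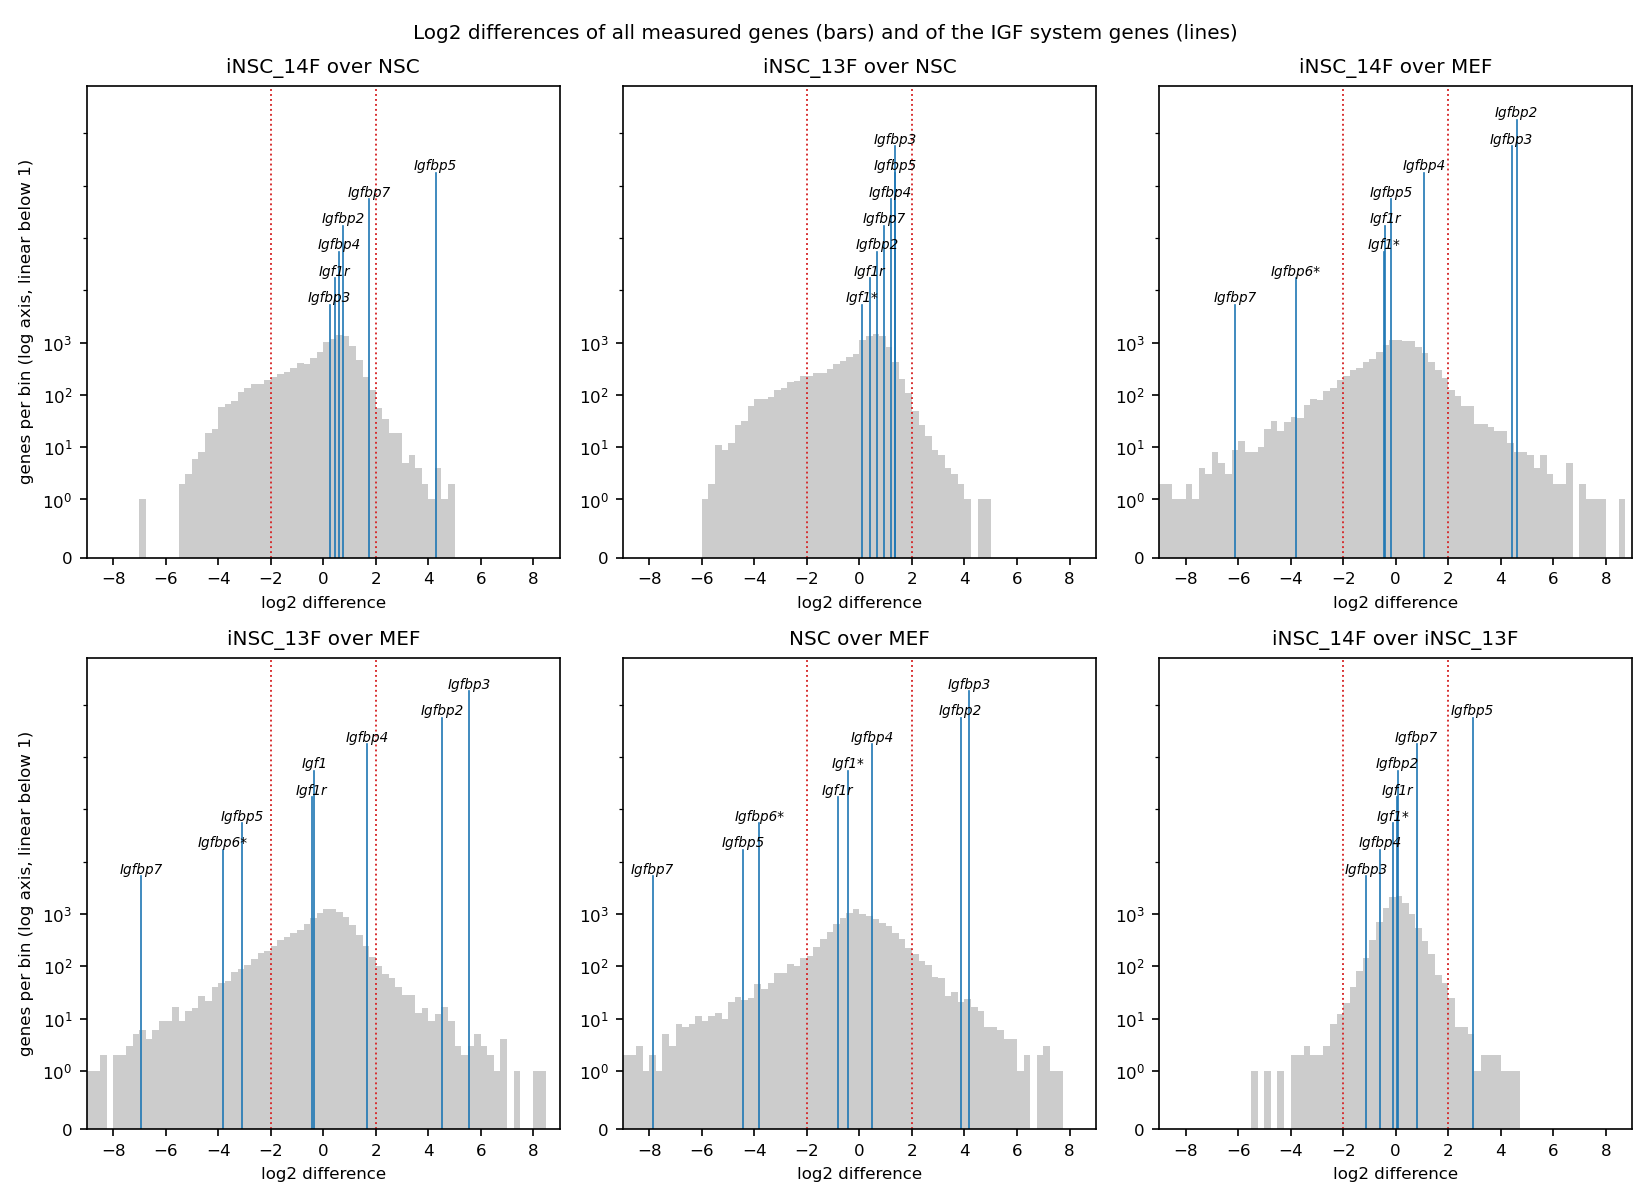
Log2 differences in the 6 pairs of arrays, with grey bars for the number of measured genes per bin of 0.25 (log axis, linear below 1) and blue lines for the 8 genes, an asterisk marking a bound. Dotted lines are the 4-fold rule. Against MEF the genes spread to both tails, whereas in iNSC_14F over NSC and over iNSC_13F Igfbp5 alone lies beyond the rule, and in iNSC_13F over NSC none does.

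The start regions of 5 binding protein genes are shown because they belong to the 3 patterns described here: Igfbp2 and Igfbp3, higher on all neural arrays, Igfbp6 and Igfbp7, lower on all of them, and Igfbp5, which differed between the induced arrays. Igfbp2 and Igfbp5 are neighbours on chromosome 1, read towards each other. Relative to MEF, NSC and iNSC_13F were higher for the first and lower for the second. Sequences are 250 bases before to 50 after a start in RefSeq (GRCm38.p6), written 5′ to 3′ on the strand of the gene. Capitals mark a GC box (GGGCGG or its reverse complement CCGCCC) or a TATA box (TATAAA or TTTATA).
Igfbp2, chr1:72824230-72824529, plus strand: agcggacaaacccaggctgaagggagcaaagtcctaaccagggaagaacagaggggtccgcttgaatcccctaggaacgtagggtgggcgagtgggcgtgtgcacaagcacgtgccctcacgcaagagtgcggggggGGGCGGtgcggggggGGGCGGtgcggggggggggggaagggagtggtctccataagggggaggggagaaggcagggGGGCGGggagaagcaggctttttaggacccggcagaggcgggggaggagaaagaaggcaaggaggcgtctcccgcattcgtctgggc
Igfbp3, chr11:7213874-7214173, minus strand: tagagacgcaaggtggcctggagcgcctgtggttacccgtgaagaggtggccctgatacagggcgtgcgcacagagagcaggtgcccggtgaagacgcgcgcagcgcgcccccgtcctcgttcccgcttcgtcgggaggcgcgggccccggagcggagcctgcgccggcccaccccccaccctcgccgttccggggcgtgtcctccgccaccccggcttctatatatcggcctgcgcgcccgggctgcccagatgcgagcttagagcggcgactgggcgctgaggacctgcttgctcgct
Igfbp5, chr1:72874816-72875115, minus strand: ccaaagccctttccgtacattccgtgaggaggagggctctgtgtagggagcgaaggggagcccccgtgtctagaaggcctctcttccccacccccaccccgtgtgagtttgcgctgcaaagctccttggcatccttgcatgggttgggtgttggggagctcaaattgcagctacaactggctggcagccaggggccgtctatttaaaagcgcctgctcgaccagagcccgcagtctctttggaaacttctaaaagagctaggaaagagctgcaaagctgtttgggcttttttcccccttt
Igfbp6, chr15:102143936-102144235, plus strand: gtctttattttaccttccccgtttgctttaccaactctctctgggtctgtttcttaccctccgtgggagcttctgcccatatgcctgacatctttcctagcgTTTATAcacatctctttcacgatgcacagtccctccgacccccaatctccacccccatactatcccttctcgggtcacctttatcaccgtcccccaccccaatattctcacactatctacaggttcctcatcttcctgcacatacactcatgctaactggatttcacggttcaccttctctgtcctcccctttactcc
Igfbp7, chr5:77407996-77408295, minus strand: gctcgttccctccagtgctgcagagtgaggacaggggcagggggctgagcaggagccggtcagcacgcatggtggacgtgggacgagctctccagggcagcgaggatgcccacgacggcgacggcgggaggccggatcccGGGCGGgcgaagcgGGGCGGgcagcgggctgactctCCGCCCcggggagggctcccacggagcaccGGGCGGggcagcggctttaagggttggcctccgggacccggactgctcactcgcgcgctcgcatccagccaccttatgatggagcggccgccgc

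The 2 genes lower on the neural arrays differed from each other in sequence: the Igfbp7 window had 33 CpG dinucleotides, 73.3% G and C and 4 GC boxes, and that of Igfbp6 had 8 CpG, 49.7% G and C, 0 GC boxes and 1 TATA box. Igfbp3 had 37 CpG and 71.7% without a GC box, and Igfbp2 had 18 CpG, 67.0% and 3 GC boxes. The Igfbp5 window had 10 CpG, 56.3% and neither motif. Of all 32851 windows of this length, 35.7% held a GC box and 13.6% a TATA box, and the medians were 7 CpG and 52.7%. The windows not printed were a second start of Igfbp2 (14 CpG), Igfbp4 (27 CpG and 1 TATA box), Igf1 (6 CpG) and Igf1r (48 CpG and 2 GC boxes). A match is a run of letters and not a measured binding site.

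Igfbp2, which encodes a binding protein abundant in fetal brain, was high on all neural arrays. Its signal was 29707 in iNSC_14F, 28178 in iNSC_13F, 17661 in NSC and 1222 in MEF. MEF was the low array, and the other 3 lay within 1.68-fold of each other. The gene was higher than in MEF by 24.3-fold for iNSC_14F, 23.1-fold for iNSC_13F and 14.5-fold for NSC. With scaling to the hybridization controls the log2 difference of NSC over MEF was 4.72, against 3.85. In iNSC_14F over MEF, 0.432% of measured genes were as far in this direction. Against NSC the induced arrays were higher by 0.75 and 0.67 (log2, iNSC_14F and iNSC_13F), but with scaling to the hybridization controls these differences were -0.11 and -0.40. Igfbp2 has 1 probe set here, so there is no second reading of the gene.

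Igfbp3 encodes the main IGF carrier of serum, which forms a complex with a ligand and the acid-labile subunit. Its signal was 13925 in iNSC_14F, 30433 in iNSC_13F, 11776 in NSC and 651 in MEF. Its other probe set read 6671, 18186, 7389 and 480.0 on the same arrays in that order. On both, iNSC_13F was the highest array and MEF the lowest, and iNSC_14F was close to NSC. Relative to MEF the gene was up by 21.4-fold for iNSC_14F, 46.7-fold for iNSC_13F and 18.1-fold for NSC. The last of these was 5.05 (log2) when scaled to the controls, against 4.18. Between the induced arrays it was 2.19-fold lower in iNSC_14F (log2 -1.13), and by the other probe set the log2 difference was -1.45. Of 10809 measured genes, 2.13% were as far in that direction, and the difference of the brighter probe set is inside the 2.32-fold that held 95% of genes, and that of the other is outside it. In iNSC_13F over NSC the 2 probe sets gave log2 differences of 1.37 and 1.30, and the first was 0.29 with scaling to the hybridization controls. In iNSC_14F over NSC they gave 0.24 and -0.15, so no direction was shared. The first of these was -0.15 with quantile normalization and -0.62 with scaling to the controls. Igfbp1, the chromosomal neighbour of Igfbp3, was below the floor on all 4 arrays.

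Igfbp4, whose product mostly restrains IGF action and is cut by the protease PAPP-A, varied least among the bright binding protein genes. Its signal was 8558 in iNSC_14F, 12803 in iNSC_13F, 5598 in NSC and 4031 in MEF, a range of 3.18-fold, and no pair reached 4-fold. Every step between neighbouring arrays in this order was smaller than 2.32-fold. Of its 6 probe sets, which rest on 3 source sequences, 5 were above the floor on all arrays. Of these 5, 4 placed iNSC_14F below iNSC_13F, with log2 differences of -0.58, -0.59, -0.61 and -0.71. The same 4 placed NSC above MEF by 0.15 to 0.47 (log2), where the brightest gave 1.34 with scaling to the hybridization controls. The remaining one, an _x_at set, read 7240, 5126, 1474 and 4472 in iNSC_14F, iNSC_13F, NSC and MEF, and went the other way in both pairs, at 0.50 and -1.60. Its spread from the others in NSC over MEF, 2.07 (log2), is past the 90th percentile of 3737 genes with several measured probe sets, whose median was 0.55. In iNSC_13F over NSC all 5 were higher, by 1.19 to 1.80 (log2), and the brightest gave 0.12 with scaling to the hybridization controls. In iNSC_14F over NSC all 5 were also higher, by 0.61 to 2.30, and the brightest gave -0.25 under that scaling.

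Of the 8 genes, Igfbp5 differed most between the induced arrays. It encodes a binding protein that attaches to the extracellular matrix. Its bright probe set, an _s_at set, read 7147 in iNSC_14F, 938 in iNSC_13F, 369 in NSC and 7977 in MEF. MEF and iNSC_14F were high and within 1.12-fold of each other, and iNSC_13F and NSC were low. The gene was 7.62-fold higher in iNSC_14F than in iNSC_13F, and it was the 1 of 7 measured genes called higher there, where 0.500% of 10809 genes were called higher and 0.342% lower. It ranked as number 11 of these 10809 in that direction. Over NSC it was 19.4-fold higher in iNSC_14F, number 7 of 10812 measured genes, and the 1 of 6 measured genes called higher, where 1.42% of genes were called higher and 9.40% lower. With scaling to the hybridization controls that difference was 3.41 (log2), against 4.28. In iNSC_13F over NSC it was 2.54-fold higher, or 0.27 (log2) under that scaling against 1.35. None of the 7 measured genes was at least 4-fold from NSC in iNSC_13F, where 1.07% of 11180 genes were called higher and 11.3% lower. Over the measured genes of the 8, the median log2 difference was 0.68 for iNSC_14F over NSC, 0.95 for iNSC_13F over NSC and 0.05 for iNSC_14F over iNSC_13F, beside 0.33, 0.30 and 0.07 for all measured genes. With 1 array per line, whether the induced lines differ in Igfbp5 was not tested.

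The other probe set of Igfbp5, an _a_at set, did not give this pattern. It read 47.8 in iNSC_14F, 169 in iNSC_13F, 73.4 in NSC and 177 in MEF. It was above the floor in iNSC_13F and MEF and below it in iNSC_14F and NSC. In NSC it did pass the receptor percentile of that array, 37.1. Where this probe set stands for the gene, the log2 difference of iNSC_14F over iNSC_13F is -0.70 or lower, a bound since iNSC_14F is below the floor, and the call over NSC is lost. The result for iNSC_14F thus rests on 1 probe set, whose suffix _s_at marks probes shared by several transcripts. Against MEF, where the bright probe set was 21.6-fold lower in NSC and 8.51-fold lower in iNSC_13F, the dim one gave -0.77 or lower for NSC, a bound, and -0.07 for iNSC_13F (log2). With scaling to the hybridization controls the bright one gave -3.56 for NSC over MEF, against -4.43. The summed signal of the fibroblast markers was 3950 in iNSC_14F and 2826 in iNSC_13F, against 449.5 in NSC, and the part of such cells in the Igfbp5 signal was not tested. Most of that sum was Fn1, at 3534, 1954, 255 and 39881 in iNSC_14F, iNSC_13F, NSC and MEF. The others above the floor in iNSC_14F were Thy1, at 171 against 10813 in MEF, and Col1a2, at 115 against 51598 in MEF, while Col1a1, Col3a1, Pdgfrb, Lum and Dcn were below it. The summed signal of pericyte and smooth muscle markers was 1045 in iNSC_14F, 576 in iNSC_13F, 1069 in NSC and 91668 in MEF.

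Igfbp6 encodes a binding protein that prefers IGF-2 over IGF-1. Its signal was 61.4 in iNSC_14F, 34.5 in iNSC_13F, 18.7 in NSC and 1460 in MEF. It was above the floor in MEF alone and therefore at least 14.0-fold lower on each of the neural arrays. The order of the neural arrays is not resolved below the floor. The gene has 1 probe set. With a lower floor, at the 75th percentile of the receptor probe sets, the log2 differences from MEF were -4.57 in iNSC_14F, -4.87 in iNSC_13F and -4.87 in NSC, against -3.81.

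Igfbp7 encodes a secreted matrix protein of fibroblasts and vessels with low affinity for IGFs. Its brightest probe set read 436 in iNSC_14F, 250.1 in iNSC_13F, 129 in NSC and 30406 in MEF. The 3 neural arrays were all low, and MEF stood above the highest of them by 69.8-fold. The gene was lower than in MEF by 69.8-fold for iNSC_14F, 122-fold for iNSC_13F and 235-fold for NSC. Scaled to the hybridization controls, the log2 differences were -6.12, -7.13 and -7.01 for iNSC_14F, iNSC_13F and NSC, against -6.13, -6.93 and -7.88, so the order of iNSC_13F and NSC depends on the scaling. In the induced lines 0.302% (iNSC_14F) and 0.170% (iNSC_13F) of measured genes were as far down. A second probe set read 34.7, 35.7, 10.3 and 674 in iNSC_14F, iNSC_13F, NSC and MEF, and so was above the floor in MEF alone. The third was below the floor on all arrays. Among the neural arrays the order was iNSC_14F, iNSC_13F and NSC, each step being under 2.32-fold. Over NSC the differences were 1.75 in iNSC_14F and 0.95 in iNSC_13F (log2), and with scaling to the hybridization controls they were 0.89 and -0.12. They rest on the 1 probe set that was above the floor on these arrays. Endothelial cells also make this protein. Of 5 endothelial markers only Kdr passed the floor, at 142 in iNSC_13F and 207 in MEF, and Pecam1 and Cdh5 were below it on every array.

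The receptor gene stayed within 4-fold on all arrays, and the ligand gene was close to the floor. For Igf1 the brightest of 4 probe sets read 47.6 in iNSC_14F, 111 in iNSC_13F, 72.6 in NSC and 140 in MEF. It was above the floor in iNSC_13F and MEF, by less than 1.5-fold, and the other 3 probe sets were below it on every array. Against the receptor percentile of its own array, the brightest probe set also passed in NSC (72.6 against 37.1), but not in iNSC_14F (47.6 against 70.9). No 4-fold difference in Igf1 was detectable at this signal, which does not show that the gene is off. Its differences depend on the floor. With the floor at the 75th percentile, iNSC_14F over MEF was -1.49 (log2) against -0.43, and iNSC_14F over iNSC_13F was -1.15 against -0.09. Igf1r was measured clearly, at 1443 in iNSC_14F, 1393 in iNSC_13F, 1065 in NSC and 1891 in MEF, a range of 1.78-fold. All neighbouring arrays in that order were within 2.32-fold of each other. A probe set from the same source sequence read 1400, 1247, 945 and 1673, and one from another sequence read 877, 596, 424 and 902. All 3 probe sets had MEF highest and NSC lowest, with log2 differences of -0.82 to -1.09 for NSC over MEF. This order was not kept under all scalings, since the difference of NSC over MEF was 0.04 with scaling to the hybridization controls, and those of iNSC_14F and iNSC_13F over NSC turned to -0.42 and -0.69, against 0.44 and 0.39. A dimmer probe set, at 174, 285, 91.0 and 235 in iNSC_14F, iNSC_13F, NSC and MEF, had iNSC_13F highest.

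**Figure D3:**
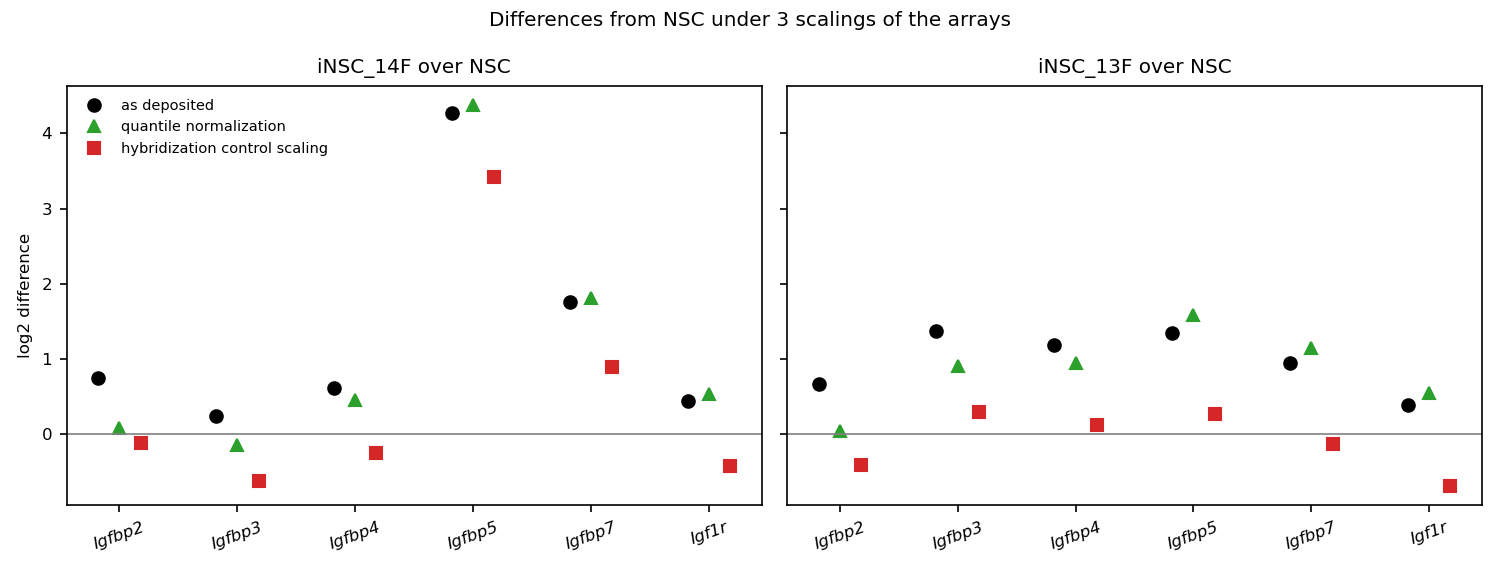
Log2 difference from NSC of the 6 genes with all arrays above the floor, for iNSC_14F (left) and iNSC_13F (right), with values as deposited (black circles), after quantile normalization (green triangles) and scaled to the hybridization controls (red squares). Only Igfbp5 in iNSC_14F stays above 3 under all 3 scalings, while Igfbp2 and Igf1r go below 0 in both lines, Igfbp3 and Igfbp4 do so in iNSC_14F and Igfbp7 does so in iNSC_13F under the last.

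For each gene with a range of at least 4-fold, the genes with the most similar levels over the 4 arrays were found by the largest distance between their centred log2 signals. Igfbp2 was nearest to Selenop, a selenium transport protein gene, at 0.24, followed by Acot1 (0.30) and Syt11 (0.31), among 7954 genes. Those nearest to Igfbp3 were Rflna (0.33), Camk2b (0.48) and Etv5 (0.49). Igfbp5 was nearest to Slc2a1, a glucose transporter gene, at 0.48, then to Txnip (0.79) and Bnip3 (0.81). Slc2a1 had signals of 9385 in iNSC_14F, 2301 in iNSC_13F, 875 in NSC and 10055 in MEF, high and low on the same arrays as the bright Igfbp5 probe set. Bnip3 read 16977, 775, 810 and 6216 on these arrays. The nearest genes to Igfbp7 were Col5a1 (0.80), Nid1 (0.91) and Serpinf1 (0.93), of which the first encodes a collagen chain and the second a basement membrane protein. For Igfbp6, 770 genes were above the floor in MEF alone, and Prkcd, Has2 and Fah were nearest. Their distances of 0.01 or less reflect values set to the floor on 3 arrays. Likeness over 4 arrays is a description.

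**Figure D4:**
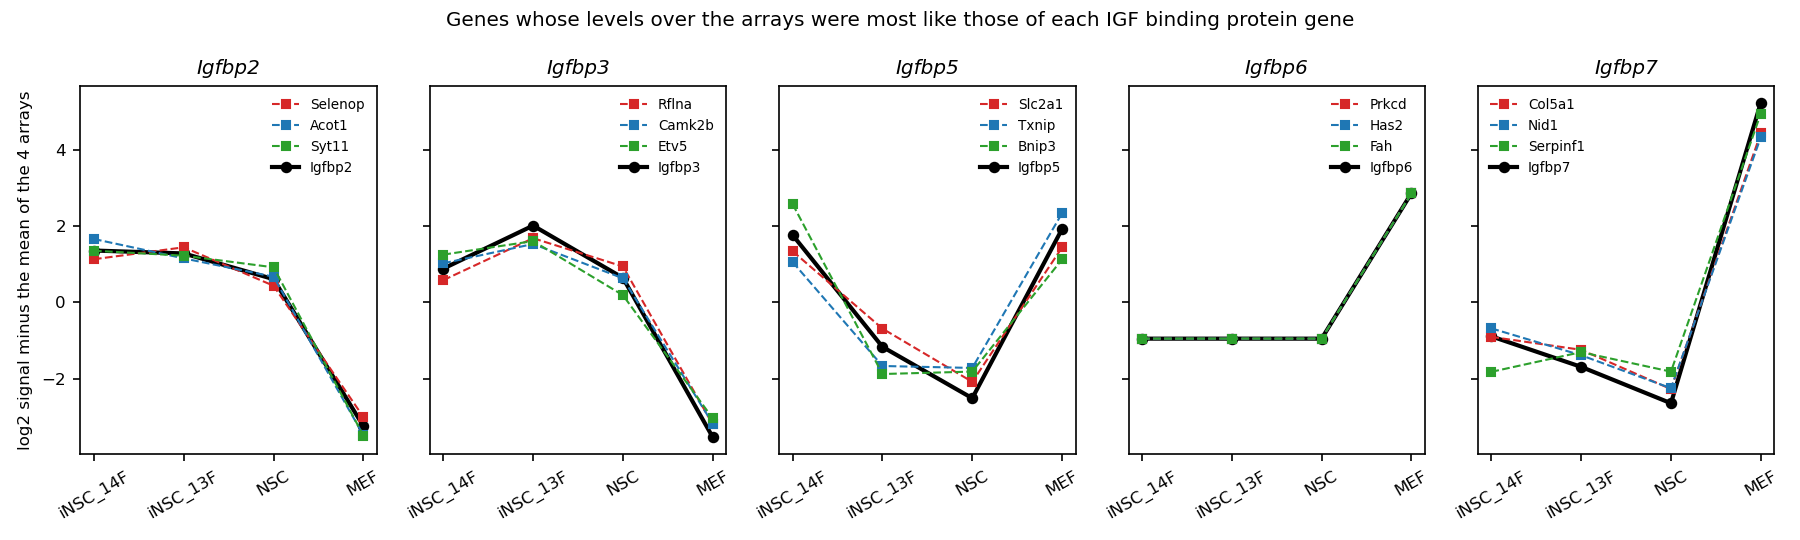
Log2 signal minus the mean of the 4 arrays (values below the floor set to it), for iNSC_14F, iNSC_13F, NSC and MEF, of 5 binding protein genes (black) and the 3 genes nearest to each (coloured). Igfbp5 and its nearest genes are high in iNSC_14F and MEF and low in iNSC_13F and NSC, and the lines for Igfbp6 coincide because 3 arrays are at the floor.

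The rest of the IGF pathway was read from a list of 39 genes, of which 34 were read here and 29 passed the floor on 1 or more arrays. For iNSC_14F over MEF 1 was called higher (Foxo3) and 9 lower, for iNSC_13F over MEF 0 and 9, and for NSC over MEF 1 (Pik3r1) and 11. All genes were called higher and lower in 4.49% and 8.03%, in 3.66% and 9.27%, and in 6.09% and 7.21% of cases in these 3 comparisons. The list's medians were -0.45, -0.69 and -0.57 (log2), against 0.10, 0.09 and -0.01 for all measured genes. Over NSC, 2 of 23 measured genes were higher and 3 lower in iNSC_14F, where 1.42% and 9.40% of all genes were, and 2 were higher and 4 lower in iNSC_13F, where 1.07% and 11.3% were. Between the induced lines 0 were higher and 2 lower in iNSC_14F, beside 0.500% and 0.342% of all genes. No count or value of the list was recomputed under scaling to the hybridization controls. That scaling moved the median of all genes to -0.45 from 0.33 in iNSC_14F over NSC. In iNSC_13F over NSC it moved to -0.65 from 0.30. The 2 genes called higher in iNSC_14F over NSC were Igf2r, at 2.06, and Htra1, at 2.48 (log2). Whether such calls hold under that scaling was not tested. Among other ligands, Igf2 read 41.2 in iNSC_14F, 53.8 in iNSC_13F, 45.8 in NSC and 12910 in MEF, so it was at least 124-fold lower on each neural array, with both probe sets in that direction. Igf2 is the ligand that the Igfbp6 product prefers, and both genes were above the floor in MEF alone. This was common, since 770 genes with an established symbol shared it with Igfbp6.

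Among genes of proteins that act on the binding proteins or carry a related domain, Ccn1, Ccn2, Ccn3, Htra1 and Pappa were called lower than MEF on all 3 neural arrays and Stc2 in NSC. Stc1 read 318 in iNSC_14F, 443 in iNSC_13F, 205 in NSC and 187 in MEF, and Pappa2 and Esm1 were below the floor on every array. Pappa, the protease of the Igfbp4 and Igfbp5 products, read 52.9 in iNSC_14F, 36.5 in iNSC_13F, 0.502 in NSC and 2947 in MEF, at least 28.4-fold lower on each neural array with 3 of 3 probe sets in that direction. Htra1, a secreted serine protease with an IGF binding protein-like domain, read 1624, 870 and 290 in iNSC_14F, iNSC_13F and NSC, against 9891 in MEF. Its order on the neural arrays was that of Igfbp7 in the deposited values, where the Igfbp7 order of iNSC_13F and NSC depends on the scaling. Ccn1 and Ccn2 encode matrix proteins with the same kind of domain. Ccn2 read 24.0 in iNSC_14F, 1070 in iNSC_13F, 33.5 in NSC and 48902 in MEF, and Ccn1 read 139, 671, 94.5 and 23078. Both were higher in iNSC_13F than in iNSC_14F, by at least 10.3-fold for Ccn2 and 4.83-fold for Ccn1. That is the opposite direction to the bright probe set of Igfbp5 and the same as its dim one.

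Downstream of the receptor, the named genes were Grb10, Pik3r1 and Pik3ca, taken because their range over these same arrays was among the largest. They do not stand for the other adaptor and kinase genes of the list. Of those, Shc1 had a range of 4.98-fold and Foxo3 of 4.65-fold. The rest stayed within the range of Akt1, 2.56-fold. Grb10, an adaptor that dampens IGF and insulin signalling, read 173 in iNSC_14F, 57.9 in iNSC_13F, 2623 in NSC and 16466 in MEF. It was 15.1-fold lower than NSC in iNSC_14F and at least 25.2-fold lower in iNSC_13F, from 1 measured probe set of 3. Pik3r1, a regulatory subunit of phosphoinositide kinase, read 780 in iNSC_14F, 627 in iNSC_13F, 5749 in NSC and 444 in MEF. It was 7.37-fold and 9.16-fold lower than NSC on the induced arrays, and 4 of 4 probe sets went that way. Pik3ca, a catalytic subunit of that enzyme, was at or below 39.9 on both induced arrays, against 1319 in NSC and 484 in MEF, with 5 of 5 measured probe sets lower than NSC. The receptor genes Igf2r and Insr are given too, chosen after their values were seen. Igf2r, which clears IGF-2, read 2406 in iNSC_14F, 1547 in iNSC_13F, 575 in NSC and 4759 in MEF, and both its probe sets had this order. The insulin receptor gene Insr read 390 in iNSC_14F, 181 in iNSC_13F, 857 in NSC and 535 in MEF from 1 measured probe set of 3.

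**Figure D5:**
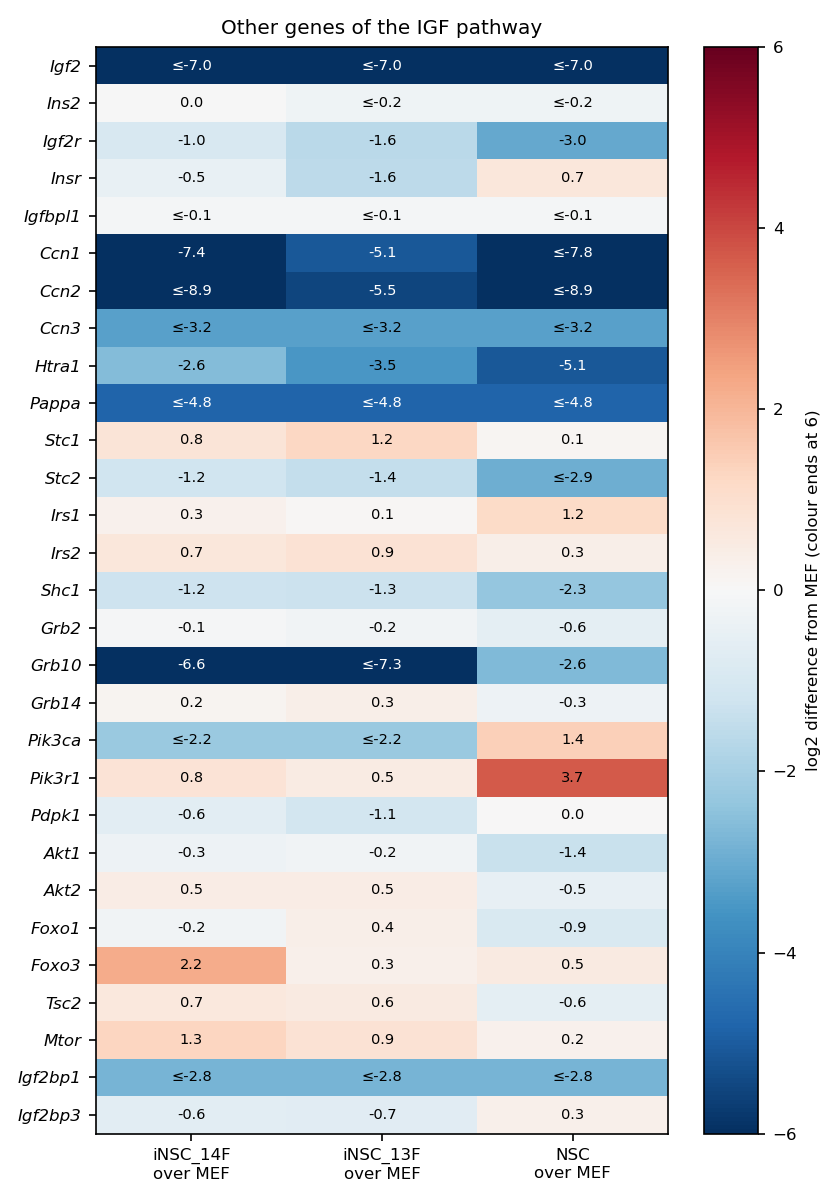
Log2 difference from MEF of the 29 measured genes of the wider IGF pathway, for iNSC_14F, iNSC_13F and NSC. Red is higher and blue lower than MEF, and a sign before a value marks a bound from an array below the floor. Igf2, Ccn1, Ccn2 and Pappa are low in all 3 columns, Grb10 is lower in both induced lines than in NSC, and Pik3r1 is higher in NSC than in either.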

How the data were processed

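The deposited values are array intensities, 1 linear signal per probe set of Affymetrix mouse arrays. MAS5, which summarises each array alone, is named per the submitters' processing notes, and the sources used here give no version. The 2% trimmed mean, averaged over the 4 arrays, was 500, and no scaling was added. Samples were grouped by their cell type label. The source label, which names embryonic stem cells, was not used.

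From these intensities, probe sets with 1 gene in the platform annotation (34945, of which 34741 were matched by ID to GRCm38.p6 symbols) were taken, and 932 with several genes and 9160 with none were left out. A gene took its brightest probe set by mean floored log2 signal. The floor was the 95th percentile of the receptor probe sets, the highest of the 4 arrays, and lower values were set to it. Genes at least 4-fold apart with the brighter array above the floor were called. No test was run, since 1 array per group leaves no residual degrees of freedom, and depth is not known for arrays, whose number limits the precision. The rule was tested on simulated data, with changes well above 4-fold in genes well above the floor. That test does not cover changes near 4-fold, dim genes or probe sets of a gene that disagree. The members, lists and alternatives were chosen with earlier results of these data known. All members could be named, with the 8 pathway genes of the largest range and the 3 genes nearest to each member with a range of at least 4-fold. Genes of the pathway list without a probe set of their own in the tables used were not analysed here. Alternatives were 2 scalings, 2 floors, a pseudocount of 16 in place of the floor, the median of probe sets, probe sets without the suffixes _s_at and _x_at, and genes above the floor on both arrays. Python 3.11.15, numpy 2.4.6, pandas 2.3.3 and matplotlib 3.10.9 were used.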

Additional observations from a re-analysis of the deposited data

How the results depend on the processing

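Of 96 recomputed counts of called genes, 92 stayed within 1.5 times their value. This is a lenient measure, since each count was 3 or less, and a drop from 3 to 2 is within it. Counts of 0 stayed at 0 and are among the 92. Without _s_at and _x_at probe sets, 0 genes were called higher in iNSC_14F over NSC and 0 in iNSC_14F over iNSC_13F, where 1 was reported in each, since the bright Igfbp5 probe set is left out. The log2 difference of Igfbp5 in iNSC_14F over iNSC_13F was reversed there, to a bound of -0.70, and the calls of Igfbp5 as lower than MEF in iNSC_13F and NSC were lost, leaving 2 of 3. With the median of probe sets the count of genes called higher in iNSC_14F over iNSC_13F was also 0, and the Igfbp5 difference was 1.11. With both arrays required to pass the floor, 1 gene (Igfbp7) was called lower in iNSC_14F over MEF, since Igfbp6 is a bound. Of 336 recomputed log2 differences of single genes, 285 moved by less than 1.5-fold. Under scaling to the hybridization controls the 4-fold calls over all genes moved to 44 higher and 1923 lower for iNSC_14F over NSC, 33 and 2349 for iNSC_13F over NSC, 1960 and 535 for NSC over MEF, and 86 and 26 for iNSC_14F over iNSC_13F. Without a floor they were 158 and 321 for the last, 816 and 1486 for iNSC_14F over MEF and 800 and 1557 for iNSC_13F over MEF. Of 48 single-gene differences under scaling to the hybridization controls, 9 changed sign, none of them in a comparison where that gene was called. The median of probe sets takes the difference of Igfbp7 to -2.70 or lower in NSC over MEF, against -7.88. It is a bound, since 2 of the 3 probe sets lie below the floor on NSC. On MEF the median is the second probe set, at 674, against 30406 for the brightest. No paired analysis was possible because each group has 1 array, and no array could be left out for the same reason. Signal over background limits Igf1, Igfbp6 and the neural levels of Igfbp7.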
